A study of Mus musculus with 24 samples.

Results

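Atf4 knockout cortical neurons exposed to homocysteate (HCA) were compared with wild-type cortical neurons exposed to HCA. The 8 arrays were those whose labels name both the genotype and HCA, 4 Atf4 knockout and 4 wild-type arrays of the 24 in the series, and every detected gene was tested. The neurons came from embryonic mouse cortex, and total RNA was read on Illumina Mouse Ref-8 BeadChips, 1 sample per array. The other 16 arrays held untreated neurons of the same genotypes, and 8 of them, 4 Atf4 knockout and 4 wild-type arrays on the same chips, were used to see which differences depended on HCA. The labels give neither the HCA dose, the time of exposure, the construction of the Atf4 knockout allele, the embryonic day, nor whether replicates were separate cultures or embryos. The p-values therefore measure the spread between these samples, which may be technical.

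ATF4 is the transcription factor at the end of the integrated stress response. Kinases that sense amino acid shortage, unfolded protein in the endoplasmic reticulum (ER), heme shortage or viral RNA phosphorylate the initiation factor eIF2, which slows most translation but favours that of Atf4 mRNA. ATF4 then binds composite C/EBP-ATF sites, often as a dimer with a C/EBP protein, and induces genes of amino acid uptake and synthesis, tRNA charging and stress signalling. HCA is a glutamate homolog. In immature cortical neurons it competes with cystine for the cystine and glutamate exchanger, so that cysteine and glutathione run short, and it is used as a model of oxidative death.

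The 8 HCA arrays lay on 2 chips, each with 2 Atf4 knockout and 2 wild-type HCA arrays, so chip and genotype were not confounded and chip was a term in every test. The mean raw signal per array was between 346 and 536 in knockout and between 394 and 536 in wild type, and between 36.6% and 42.3% of probes in knockout and between 38.8% and 41.4% in wild type were detected. The first principal component, 49.5% of the variance, separated the genotypes. On the second component (24.6%) replicate 1 of wild type (-19.8) and of knockout (-14.6) lay at the low end. Replicate 4 of knockout (15.6) and of wild type (13.9) lay at the high end. The correlation of wild-type replicate 1 with the other wild-type arrays was 0.972 to 0.979. Eif2s3y, a Y-linked initiation factor subunit, had log2 levels of 9.78, 9.36, 9.07 and 8.65 in knockout and of 9.99, 4.70, 4.95 and 8.72 in wild type, so that wild-type replicates 2 and 3 lacked the transcript and the other 6 arrays had it. Precision is limited by the number of arrays.

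The targeted gene Atf4 followed the labels. Its log2 levels were 4.59, 4.59, 4.59 and 4.67 in knockout neurons with HCA, and 10.13, 10.44, 10.54 and 10.61 in wild-type neurons with HCA. The probe was detected on 0 of 4 knockout arrays and 4 of 4 wild-type arrays, and the groups lay far apart. The fitted difference was -5.82 ± 0.10 (log2, SE, adjusted p = 3.15e-08, limma). Because knockout has only a bound, the fold is stated as at least 19.1-fold lower, the wild-type mean against the dimmest probe that was detected on each knockout array. The sources used here name neither the part of the transcript that the probe reads nor the part that was deleted.

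Loss of Atf4 was accompanied by lower expression of a compact set of strongly changed genes and by small shifts of many others in both directions. Of 7357 genes tested, 1555 differed at an adjusted p under 0.05 (21.1%, limma), 812 lower in knockout (11%) and 743 higher in knockout (10.1%). The large differences ran mostly downward, since 197 genes were at least 2-fold lower and 12 at least 2-fold higher, and 26 were at least 4-fold lower while 0 were 4-fold higher. In 895 genes (12.2%) all 4 knockout arrays lay below all 4 wild-type arrays, and in 960 genes (13%) all lay above. The share of higher calls moved with the processing. They make up 47.8% of the calls here and 14.7% (90 of 614) when arrays are centred on the median of all probes in place of quantile normalization. Without knockout replicate 2 the calls numbered 903, and without wild-type replicate 4 they numbered 924. Higher calls numbered 335 without knockout replicate 2, 361 without wild-type replicate 4, 402 without knockout replicate 1, 434 without wild-type replicate 3 and 452 without knockout replicate 3. Without both wild-type arrays that lack Eif2s3y there were 905 calls, 361 of them higher.

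All 1555 called genes had the same sign of the difference on chip 2 and on chip 3, which calling them from the same 8 arrays favours, and a test of whether the difference depended on chip called 0 genes (limma, 260 at an unadjusted p under 0.05). Chac1, the gene furthest below wild type next to Atf4, differed by -4.70 on chip 2 and by -5.35 on chip 3. Of the 197 genes that were at least 2-fold lower, 37 were detected on no knockout array, and their folds are bounded by the background.

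**Figure D1:**
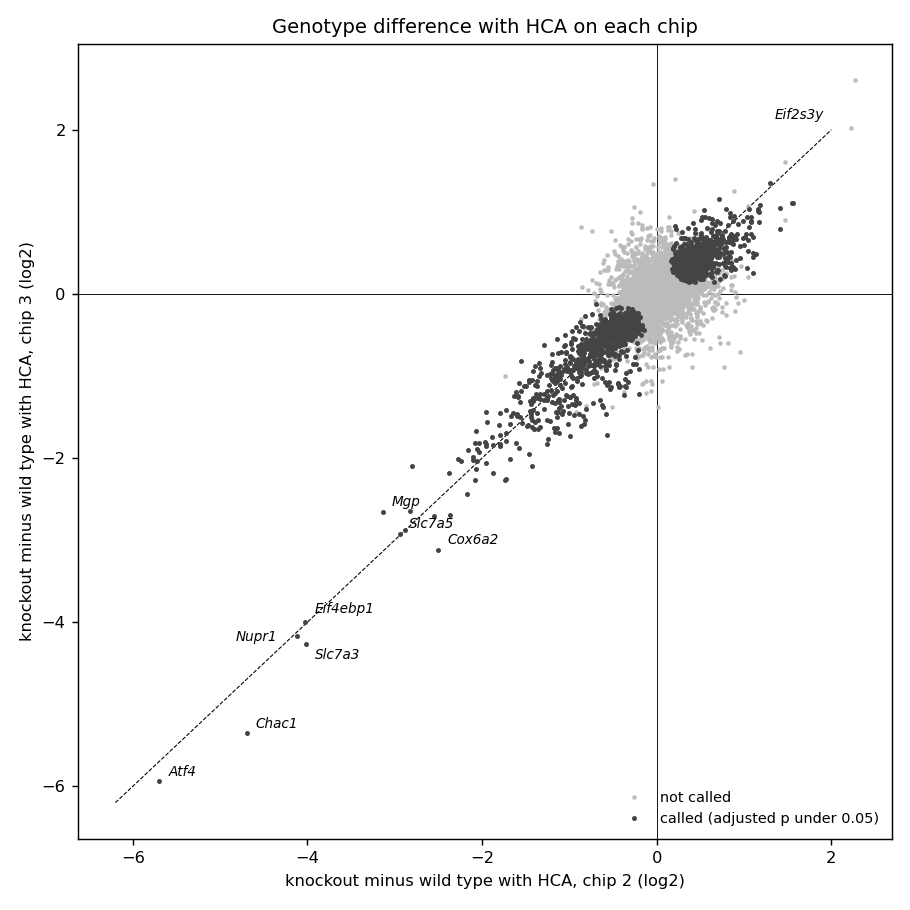
Difference between knockout and wild-type neurons with HCA (log2) for every tested gene, on chip 2 (horizontal axis) and on chip 3 (vertical axis), with called genes dark and the others grey. Atf4, Chac1, Slc7a3, Nupr1 and Eif4ebp1 lie near or below -4 on both chips, near the dashed line of equal differences.

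Chac1, Nupr1 and Eif4ebp1, among the genes furthest below wild type, belong to the stress regulators of the integrated stress response. Of 13 tested members, 12 were lower in knockout and 0 were higher, with a median of -1.70 (-1.48 with undetected genes at their bound) against 0.03 over all tested genes. Chac1, which degrades glutathione, had log2 levels of 7.31, 6.73, 6.51 and 6.60 in knockout, against 11.69, 11.74, 11.94 and 11.88 in wild type. It was 32.5-fold lower in knockout (log2 -5.02 ± 0.17, adjusted p = 2.01e-06, limma), and every wild-type array lay far above every knockout array. Nupr1, a stress-induced chromatin protein, had 4.82, 5.00, 4.74 and 4.81 in knockout, where 0 of 4 arrays detected it, against 9.38, 8.67, 8.64 and 9.26 in wild type. It was at least 7.02-fold lower in knockout (adjusted p = 8.42e-06, limma).

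Eif4ebp1, which represses cap-dependent translation, had log2 levels of 7.53, 7.71, 7.44 and 7.75 in knockout and 11.58, 11.71, 11.59 and 11.60 in wild type. Both groups were tight, and the difference was -4.01 ± 0.09 (adjusted p = 2.37e-07, limma). The transcription factors Atf5 (-2.05), Jdp2 (-1.48) and Cebpb (-1.37), the last a dimer partner of ATF4, were lower too. So were Stc2, a secreted stress glycoprotein that no knockout array detected (at least 2.55-fold lower), Vegfa, the angiogenic growth factor (-1.90), Ddit4, an inhibitor of mTORC1 (-1.70), and Herpud1, of ER-associated degradation (-1.47). Ddit3, which encodes CHOP, was lower by less (-0.76 ± 0.11, adjusted p = 0.00316, limma), with 7.92, 7.93, 8.53 and 8.27 in knockout and 8.65, 8.97, 8.91 and 9.18 in wild type. Ppp1r15a, the subunit that directs dephosphorylation of eIF2, was at -0.60. Ndrg1 was the member that did not pass the test, at 0.07 ± 0.08 (adjusted p = 0.56, limma). Trib3, Atf3 and Sesn2, of the same response, had no probe detected on any HCA array and were not tested.

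**Figure D2:**
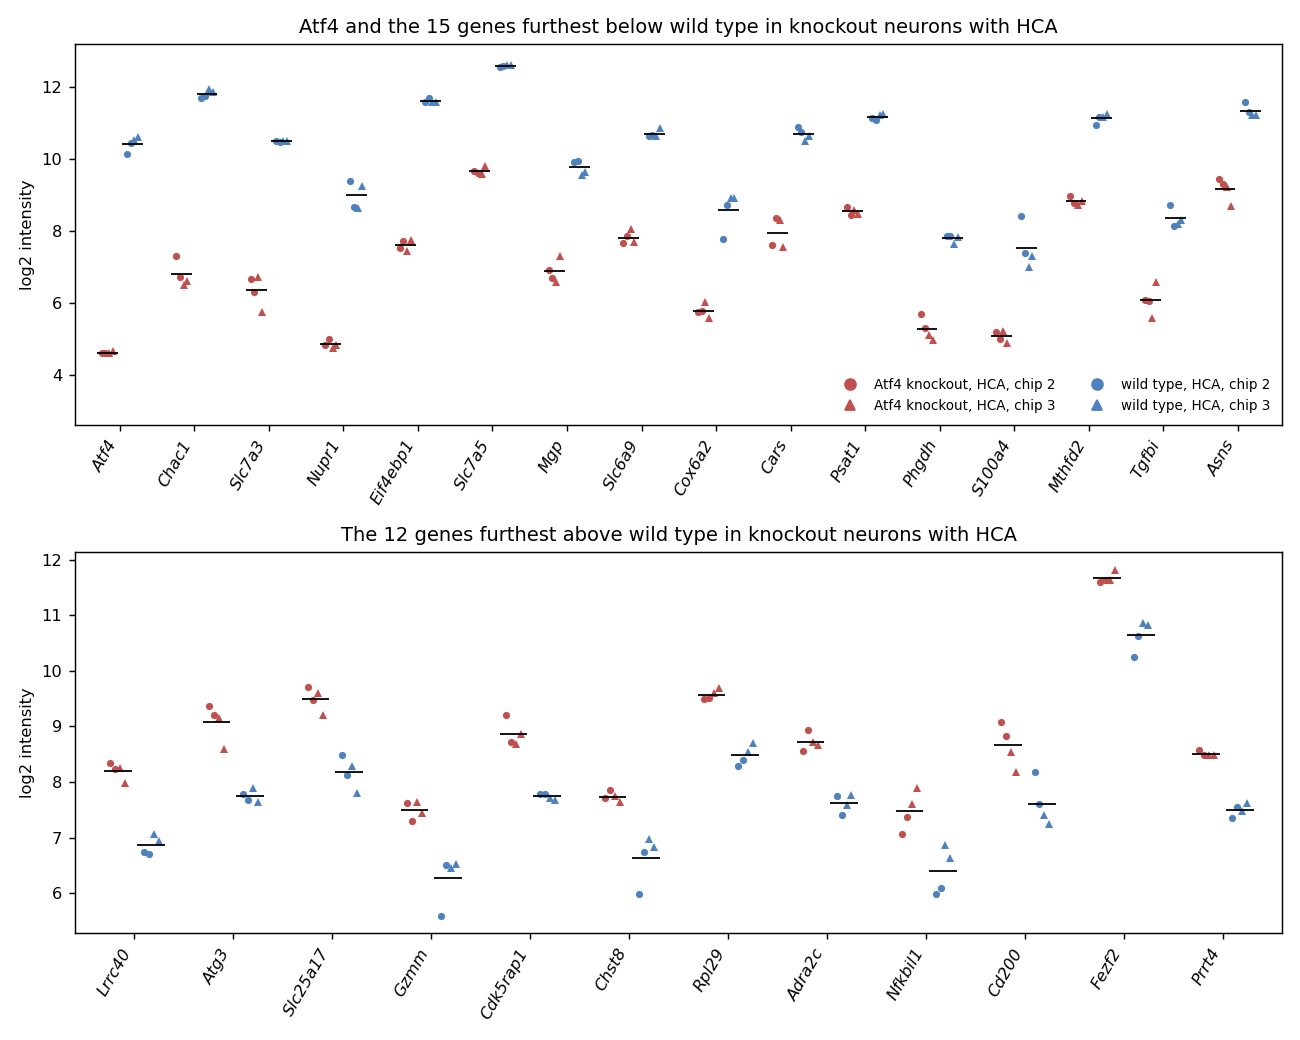
Log2 intensity on each HCA array of Atf4 and the 15 genes furthest below wild type (top), and of the 12 genes furthest above it (bottom), with knockout at left in red and wild type at right in blue. Circles are chip 2, triangles chip 3 and bars the group means (n = 4 each); the groups do not overlap for any gene shown, and the differences run from -5.82 in Atf4 to 1.34 in Lrrc40.

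Enzymes that make serine, glycine, asparagine and folate-bound carbon units fell together. Of 10 tested members of the amino acid synthesis list, 9 were lower in knockout and 0 were higher, with a median of -1.93 (-1.69 at the bound). Psat1, of serine synthesis, had log2 levels of 8.65, 8.46, 8.59 and 8.48 in knockout and of 11.13, 11.09, 11.23 and 11.25 in wild type, a 6.19-fold lower level (-2.63 ± 0.08, adjusted p = 1.08e-06, limma). Its second detected probe gave -2.45. Phgdh, the enzyme before it in the pathway, had 5.69, 5.29, 5.11 and 4.95 in knockout, detected on 0 of 4 arrays, against 7.87, 7.85, 7.63 and 7.83 in wild type, and was at least 3.07-fold lower. The mitochondrial folate enzymes Mthfd2 (-2.30), Mthfd1l (-2.11), Shmt2 (-1.76) and Aldh1l2 (-1.11) were all lower. Asns, asparagine synthetase, had 9.43, 9.29, 9.22 and 8.69 in knockout and 11.57, 11.32, 11.22 and 11.23 in wild type (-2.18 ± 0.13, adjusted p = 4.43e-05, limma), and a second probe gave -2.16. The aminotransferases differed among themselves: Gpt2, for alanine, was at -1.29 and Got1, for aspartate, at -0.65, while Bcat1, for branched-chain amino acids, was at -0.19 ± 0.21 with overlapping groups.

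Amino acid transporters divided into a group that fell and a group that did not pass the test. Of 11 tested members 7 were lower in knockout and 0 were higher, with a median of -1.27 (-0.62 at the bound). Slc7a3, which carries cationic amino acids, had log2 levels of 6.65, 6.29, 6.73 and 5.74 in knockout and 10.51, 10.48, 10.51 and 10.50 in wild type. It was 17.7-fold lower in knockout (-4.14 ± 0.20, adjusted p = 1.36e-05, limma). Only 3 of 4 knockout arrays detected it, so the fold rests partly on background. Slc7a5, the catalytic chain of the main transporter of large neutral amino acids, had 9.65, 9.61, 9.58 and 9.80 in knockout and 12.55, 12.59, 12.62 and 12.60 in wild type (-2.93 ± 0.07, adjusted p = 3.83e-07, limma). Its heavy chain Slc3a2, which also pairs with the cystine and glutamate exchanger, was at -1.56 ± 0.09. Slc6a9, a glycine transporter, had 7.67, 7.85, 8.05 and 7.68 in knockout and 10.64, 10.66, 10.64 and 10.85 in wild type (-2.88 ± 0.10, adjusted p = 2.63e-06, limma). Slc1a5 (at least 1.22-fold, detected on 0 of 4 knockout arrays) and Slc1a4 (-1.27), which exchange small neutral amino acids, and Slc38a2, a glutamine carrier (-0.62), were lower as well. Slc38a1, Slc7a6, Slc36a4 and Slc38a7 lay between -0.10 and 0.32 and were not called. Slc7a11, the exchanger subunit that HCA acts on, had no probe detected on any HCA array and was not tested.

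The cytosolic tRNA synthetases, which load amino acids onto tRNA, divided in the same way. Of 12 tested members 6 were lower in knockout and 0 were higher, with a median of -0.32. Cars, which charges cysteine, had log2 levels of 7.61, 8.35, 8.31 and 7.54 in knockout and of 10.88, 10.74, 10.50 and 10.64 in wild type (-2.74 ± 0.21, adjusted p = 0.000151, limma). Nars (-1.30), Aars (-1.27), Tars (-0.81), Sars (-0.61) and Gars (-0.48) were the other lower members. Farsa, Farsb, Kars, Rars, Vars and Wars lay between -0.16 and 0.11 and were not called. Their mitochondrial counterparts showed no such loss: of 9 tested, 1 was higher (Fars2, 0.36) and 1 lower (Wars2, -0.63), with a median of 0.20. Over all tested genes 10.1% were called higher and 11% lower. Among 29 tested translation initiation factors 5 were higher in knockout, Eif4g2 (0.79), Eif5 (0.51), Eif1ax (0.49), Eif2b3 (0.44) and Eif6 (0.28), and 1 was lower, the eIF2 subunit Eif2s2 (-0.52). The 5 higher calls numbered 3 without knockout replicate 1, knockout replicate 2, wild-type replicate 3 or both wild-type arrays that lack Eif2s3y, and 1 with median centring over all probes.

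The start regions of these genes were searched for TGATGNAA, the core of the composite C/EBP-ATF site, because ATF4 is the gene removed. The window ran from 250 bases before to 50 after the gene start in RefSeq for mouse GRCm38.p6, both strands were read, and a match is a description of letters and not of binding. Among genes called lower, 32 of 663 with a window (4.83%) held the motif, against 160 of 6033 (2.65%) of all tested genes, 11 of 603 (1.82%) of those called higher and 4.51% of all 27025 genes in the table. The share was 7.14% (11 of 154) among genes at least 2-fold lower. Of the 22 genes with a window and a negative interaction (difference with HCA minus difference untreated, adjusted p under 0.05), 6 held it (27.3%). Among the 15 genes furthest below wild type, Slc7a3, Eif4ebp1, Slc7a5, Mgp, Cox6a2 and Cars had no window and were not searched. Of the others, 3 held the motif before the start. Their 250 bases before the start are shown from 5′ to 3′ on the strand of the gene. The motif, or its reverse complement, is in capitals.
Chac1 (chr2:119350992-119351241, plus strand): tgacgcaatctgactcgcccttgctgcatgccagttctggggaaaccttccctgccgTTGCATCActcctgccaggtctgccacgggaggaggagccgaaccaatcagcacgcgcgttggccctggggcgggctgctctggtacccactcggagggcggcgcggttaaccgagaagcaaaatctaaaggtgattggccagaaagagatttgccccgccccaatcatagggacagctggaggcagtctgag
Nupr1 (chr7:126625471-126625720, minus strand): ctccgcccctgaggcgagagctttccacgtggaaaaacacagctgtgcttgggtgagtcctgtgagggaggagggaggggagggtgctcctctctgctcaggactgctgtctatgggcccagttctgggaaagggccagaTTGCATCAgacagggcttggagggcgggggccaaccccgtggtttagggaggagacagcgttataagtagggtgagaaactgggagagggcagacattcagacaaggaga
Asns (chr6:7693210-7693459, minus strand): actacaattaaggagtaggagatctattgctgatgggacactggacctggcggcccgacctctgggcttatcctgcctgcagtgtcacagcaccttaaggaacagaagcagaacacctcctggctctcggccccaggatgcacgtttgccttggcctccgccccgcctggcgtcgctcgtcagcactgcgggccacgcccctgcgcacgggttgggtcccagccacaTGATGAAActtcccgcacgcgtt
The motif begins 193 bases before the start in Chac1, 110 in Nupr1 and 23 in Asns. In Chac1 and Nupr1 it is on the opposite strand from the gene, and in Asns on the strand of the gene.

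Slc1a4 and Rem2, also among the genes with a negative interaction, hold the motif too, and 28 bases around it are shown to let the flanks be compared.
Slc1a4 (chr11:20332700-20332727, gene on the minus strand): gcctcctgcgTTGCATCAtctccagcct
Rem2 (chr14:54476076-54476103, gene on the plus strand): ggaatcccgcTTACATCActgctcatta
The match begins 4 bases before the start in Slc1a4 and runs across it. In Rem2, a small GTPase that limits calcium channel activity in neurons, it begins 14 bases before the start. Slc1a4 was 2.41-fold lower in knockout with HCA, and Rem2 was not called (-0.17 ± 0.10, adjusted p = 0.254, limma).

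Glutathione, made from cysteine, glutamate and glycine, is the main small antioxidant of the cell. Of 8 tested genes of glutathione synthesis and recycling 3 were lower and 1 was higher in knockout, with a median of -0.22. These counts stand beside 11% lower and 10.1% higher among all tested genes. Gclm, the modifier subunit of the enzyme that limits glutathione synthesis, had log2 levels of 9.08, 8.99, 9.10 and 9.25 in knockout and 9.27, 9.42, 9.18 and 9.31 in wild type. The groups overlapped and the difference of -0.18 ± 0.09 was not called (adjusted p = 0.176, limma). Its catalytic partner Gclc had no probe detected on any HCA array. The peroxidases Gpx8 (-1.18) and Gpx7 (-0.42) and the glutaredoxin Glrx (-0.74) were lower, and the cyclotransferase Ggct was higher (0.57 ± 0.09, adjusted p = 0.00313, limma).

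Among glutathione S-transferases 5 of 8 tested were lower and 0 were higher, with a median of -0.41. Gsta4, which conjugates lipid peroxidation products, was at -1.26, Mgst1 at least 1.40-fold lower with 0 of 4 knockout arrays detecting it, Gstm1 at -0.88, Gstp1 at -0.45 and Mgst3 at -0.33. The count was 3 without knockout replicate 1, and 3 with median centring over all probes. The NRF2 list had 3 of 8 tested members lower and 0 higher: Hmox1, the peroxiredoxin Prdx1 (-0.67 ± 0.08) and Srxn1 (-0.38), which lost its call without any of 6 single arrays (adjusted p between 0.0354 and 0.130 over the 8 arrays left out in turn, limma). Txnrd1 (0.13), Keap1 (-0.02), Taldo1 (-0.11) and Tkt (-0.06) were not called, and Nqo1 was detected on 1 wild-type array alone.

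Hmox1, heme oxygenase 1, had log2 levels of 7.96, 8.51, 8.37 and 8.30 in knockout, against 11.04, 9.97, 9.57 and 11.13 in wild type. All wild-type arrays lay above all knockout arrays, and the wild-type arrays were split, replicates 1 and 4 high and replicates 2 and 3, those without Eif2s3y, lower. Its level was 4.42-fold lower in knockout (-2.14 ± 0.35, adjusted p = 0.00495, limma), and the difference was -2.80 without wild-type replicates 2 and 3. Of 13 tested genes of heme and iron handling 3 were lower, Hmox1, the iron exporter Slc40a1 (-1.14) and biliverdin reductase Blvra (-0.59), and 1 was higher, the iron importer Slc11a2 (0.34). Over all tested genes 11% were called lower and 10.1% higher. Ferritin chains, Fth1 at -0.24 and Ftl1 at 0.03, were not called. The metallothioneins Mt3 (-1.04) and Mt1 (-0.91), which bind zinc and copper, and the zinc exporter Slc30a1 (-0.70) were the 3 lower genes of 8 tested in their list, and Mt2 (-0.26) was not called. Slc30a1 differed by -0.32 on chip 2 and -1.08 on chip 3 and lost its call without knockout replicate 2, 3 or 4 or wild-type replicate 2, 3 or 4 (adjusted p up to 0.0909, limma).

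Genes of the ER and of sterol synthesis were lower by moderate amounts. Of 11 tested ER chaperones and degradation factors 7 were lower and 0 higher, with a median of -0.55. Hsp90b1, the ER form of HSP90, had 10.03, 10.03, 9.99 and 9.66 in knockout and 11.43, 11.04, 10.87 and 10.72 in wild type (-1.09 ± 0.12, adjusted p = 0.000816, limma). Hspa5, also called BiP, was at -1.31, Pdia4 and Xbp1 at -0.92 each, Pdia3 at -0.71, Sel1l at -0.55 and Creld2 at -0.37, while Dnajb9 (0.37) was not called. Every one of the 12 tested sterol synthesis genes was lower, with a median of -0.85. Stard4, a sterol carrier, had 9.76, 9.66, 9.66 and 9.48 in knockout and 11.02, 11.13, 11.10 and 11.12 in wild type (-1.45 ± 0.08, adjusted p = 3.81e-05, limma). Mvd (-1.54), Insig1 (-1.18), Nsdhl (-1.13) and Lss (-1.12) were lower, and Srebf2, the transcription factor of the pathway, was at -0.52. In fatty acid synthesis 4 of 9 tested were lower, led by the desaturase Scd1 (-1.53), or 1 with median centring over all probes.

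Other stress and growth programmes were read beside these. Their counts are set beside 11% lower and 10.1% higher among all tested genes. Of 15 tested genes of hypoxia and glycolysis 7 were lower and 1 higher, among them the hydroxylase Egln3 (-1.54), the platelet-type phosphofructokinase Pfkp (-1.51), hexokinase Hk2 (-1.06) and the glucose transporter Slc2a1 (-0.72), and the kinase Pfkfb3 was the higher member (0.32); 4 were lower with median centring over all probes. Immediate early genes were lower in 5 of 9 cases, with Ier3 at -1.87, Egr1 at -1.26, Junb at -0.71 and Jun at -0.68, and Homer1 was higher (0.43). The 5 lower calls numbered 3 without wild-type replicate 4. Cytosolic heat shock proteins had 3 of 8 lower, Hspb1 (-1.70), Bag3 (-0.86) and Hsph1 (-0.43). In the p53 and apoptosis list 1 of 9 was lower and 1 higher, Zmat3 (0.34), which lost its call without knockout replicate 1 or 3 or wild-type replicate 4. Cdkn1a, the p21 cell cycle inhibitor, had 9.31, 9.15, 9.41 and 9.14 in knockout and 9.92, 9.62, 9.47 and 9.76 in wild type (-0.44 ± 0.12, adjusted p = 0.0326, limma). Its call was lost without knockout replicate 1, 2 or 4 or without wild-type replicate 1 or 4, with adjusted p up to 0.102. Bbc3, which encodes the death protein PUMA, had no probe detected on any HCA array. None of 26 proteasome subunits was called by limma (median -0.03), and 4 of 68 cytosolic ribosomal proteins were higher and 2 lower.

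**Figure D3:**
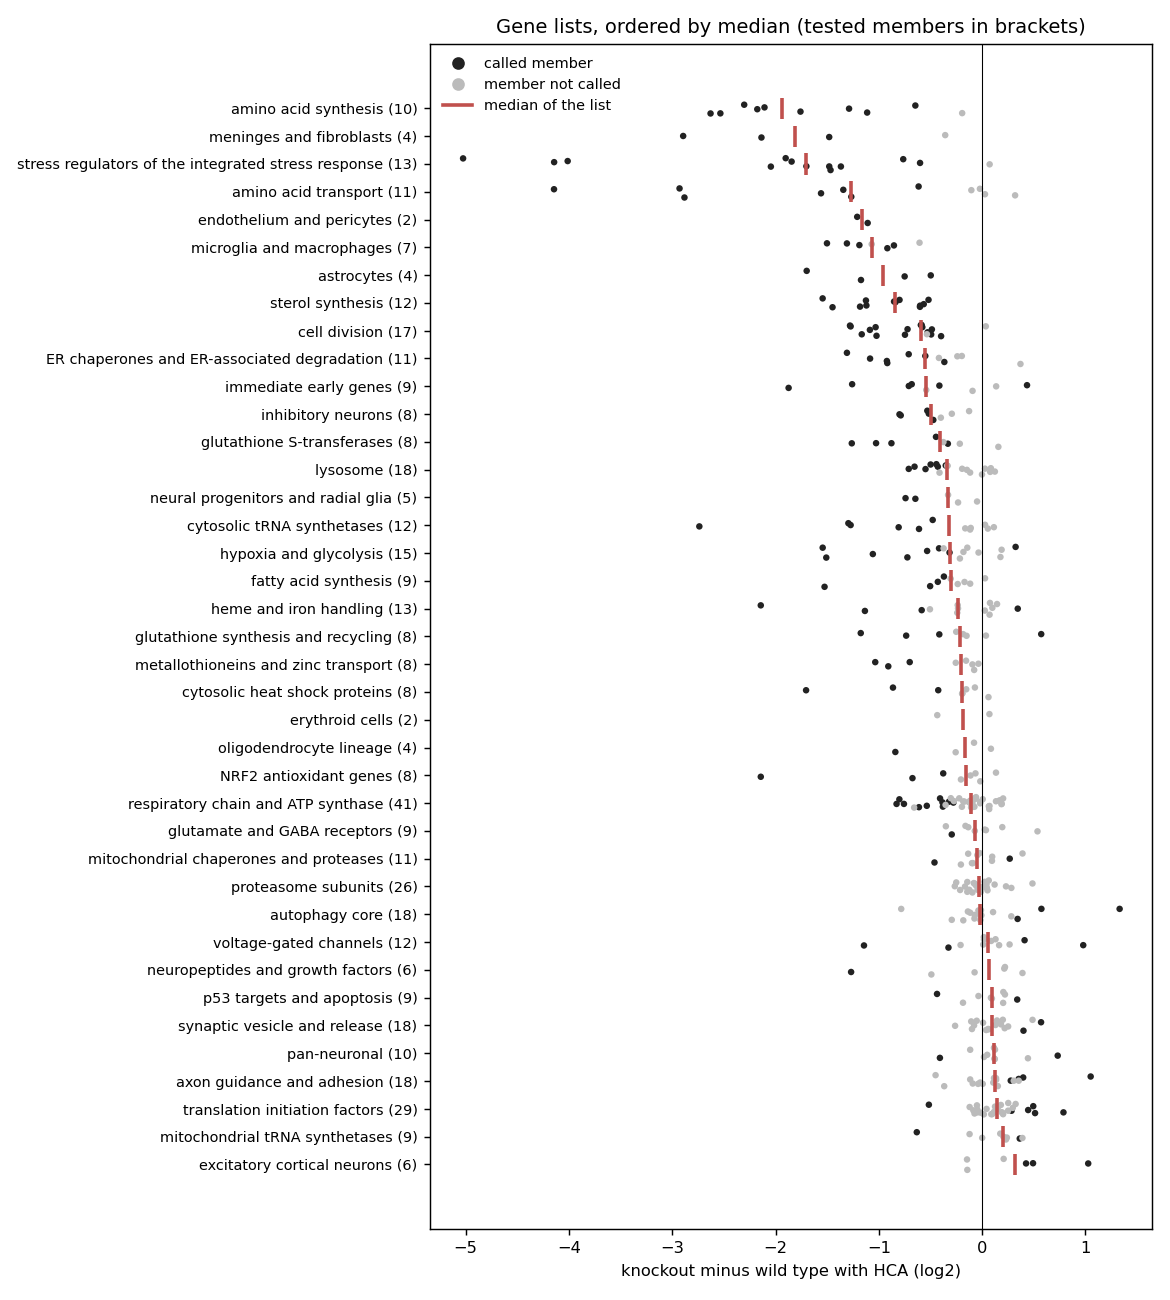
Difference between knockout and wild-type neurons with HCA (log2) of each tested member of 39 gene lists, ordered by the median, which is the red bar. Called members are black and others grey; amino acid synthesis (median -1.93), meninges and fibroblasts (-1.81, or -1.25 at the bound) and the stress regulators (-1.70) stand at the low end, and excitatory cortical neurons (0.32) at the high end.

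Genes higher in knockout differed by much less than those that were lower. Lrrc40, a leucine-rich repeat protein, had the largest difference, with 8.35, 8.23, 8.25 and 7.99 in knockout and 6.75, 6.72, 7.07 and 6.94 in wild type (1.34 ± 0.11, adjusted p = 0.000292, limma). Atg3, the enzyme that couples LC3 to lipid in autophagy, had 9.37, 9.21, 9.15 and 8.60 in knockout and 7.79, 7.69, 7.89 and 7.64 in wild type (1.33 ± 0.15, adjusted p = 0.000878, limma). The groups did not overlap in either gene, but the Atg3 call was lost with all 24 arrays in the fit (adjusted p = 0.0844, limma). Of 18 autophagy genes tested 3 were higher, Atg3, Atg10 (0.57) and Atg12 (0.34), and 0 were lower, with a median of -0.02 and beside 10.1% of all tested genes higher. The higher calls numbered 1 without knockout replicate 1, knockout replicate 2, wild-type replicate 3 or both wild-type arrays that lack Eif2s3y, and 1 with median centring over all probes. The peroxisomal carrier Slc25a17 was at 1.32, the tRNA-modifying enzyme Cdk5rap1 at 1.13, the sulfotransferase Chst8 at 1.10 and the adrenergic receptor Adra2c at 1.09. Both further probes that 4 or more HCA arrays detected gave 0.76 and 0.88 for Cdk5rap1. Gzmm (1.23), Nfkbil1 (1.09) and Prrt4 (1.00) were higher too. So was Rpl29 (1.09), a ribosomal protein with near-identical copies in the genome, for which the probe may not tell the copies apart. Cd200 (1.05) and Fezf2 (1.03) are the remaining members of the 12 highest. Gzmm and Chst8 were detected on 3 of 4 wild-type arrays and Nfkbil1 on 2 of 4, so their differences rest partly on background.

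Of all tested genes 10.1% were called higher and 11% lower, and the counts for neuronal lists are set beside these shares. Excitatory markers were called only higher and inhibitory markers only lower. Fezf2, a transcription factor of deep-layer projection neurons, had log2 levels of 11.59, 11.62, 11.63 and 11.82 in knockout and 10.25, 10.62, 10.86 and 10.83 in wild type (1.03 ± 0.11, adjusted p = 0.000701, limma). The vesicular glutamate transporter Slc17a6 (0.49) and Neurod2 (0.42) were also higher, so that 3 of 6 tested excitatory markers were higher and 0 lower, or 1 higher with median centring over all probes. Of 8 tested inhibitory markers 5 were lower and 0 higher, Npy (-0.80), Calb2 (-0.79), Dlx1 (-0.53), Slc32a1 (-0.52) and Sst (-0.47). The 5 lower calls numbered 3 without any 1 of knockout replicates 2, 3 or 4 or wild-type replicates 3 or 4, and 2 without both wild-type arrays that lack Eif2s3y or with median centring over all probes. Npy, the best separated of them, had 9.59, 9.52, 9.50 and 9.55 in knockout and 10.34, 10.22, 10.24 and 10.57 in wild type. Of 12 pan-neuronal markers 10 were detected on enough arrays to be tested, and of these 1 was higher, the neurofilament Nefm (0.73), and 1 lower, Tubb3 (-0.41), whose call was lost when any single HCA array was left out (adjusted p between 0.0509 and 0.128, limma). Of 18 synaptic vesicle genes the active zone genes Rims1 (0.57) and Pclo (0.40) were higher and 0 were lower, and of 9 glutamate and GABA receptors 1 was lower, Grik1 (-0.29), whose call was lost without 7 of the 8 HCA arrays left out singly, all but wild-type replicate 1 (adjusted p up to 0.0822, limma). The potassium channel Kcnc4 was higher (0.98) and the sodium channel Scn1a lower (-1.14, or -1.13 with an adjusted p of 0.0578 without wild-type replicate 4, limma).

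Markers of glia, vessels, meninges and dividing cells were lower in knockout. In bulk RNA, fewer cells of a type and less RNA per cell cannot be told apart. All 4 tested astrocyte markers were lower, Aqp4 (-1.70), Gja1 (-1.17), Aldh1l1 (-0.75) and Slc1a3 (-0.50), while Gfap, S100b, Slc1a2 and Aldoc were not tested. Microglial markers were lower in 5 of 7 cases, and 3 of these, C1qa, C1qb and Cx3cr1, were detected on 0 of 4 knockout arrays and so were tested through wild type alone. They were at least 1.44-fold, 1.38-fold and 1.60-fold lower. The meningeal and fibroblast markers Mgp (-2.89), Col6a1 (-1.48, detected on 1 of 4 knockout arrays) and Col1a1 (at least 2.02-fold, detected on 0 of 4 knockout arrays) were lower, and Fn1 (-0.36) was not called. Mgp, matrix Gla protein, had 6.91, 6.70, 6.59 and 7.30 in knockout and 9.92, 9.96, 9.57 and 9.63 in wild type. Both tested markers of endothelium and pericytes were lower, Flt1 (-1.21) and Pdgfrb (-1.11), and of 4 oligodendrocyte markers 1, Olig1 (-0.84). Cell division genes were lower in 15 of 17 cases with a median of -0.59, also -0.59 at the bound, with Rrm2 at -1.28, Aurkb at -1.27, Cdk1 at -1.17 and Top2a at -1.09.

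The summed level of a marker list is log2 of the mean linear intensity of the same tested markers. It restates their values by array and adds no separate support. C1qa, C1qb, Cx3cr1 and Col1a1 were tested through wild type alone. The knockout sums for microglia and for meninges and fibroblasts therefore hold some background. For meninges and fibroblasts it was 6.86 to 7.19 in knockout and 8.47 to 8.75 in wild type. For astrocytes it was 9.18 to 9.45 in knockout and 9.97 to 10.35 in wild type, and for microglia 7.10 to 7.43 in knockout and 8.01 to 8.40 in wild type. For pan-neuronal markers the ranges overlapped, 11.92 to 12.01 in knockout and 11.76 to 11.95 in wild type. Levels of different lists come from different probes, so only the genotypes can be compared within a list. The part of these cell types in the losses described for other genes was not tested.

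**Figure D4:**
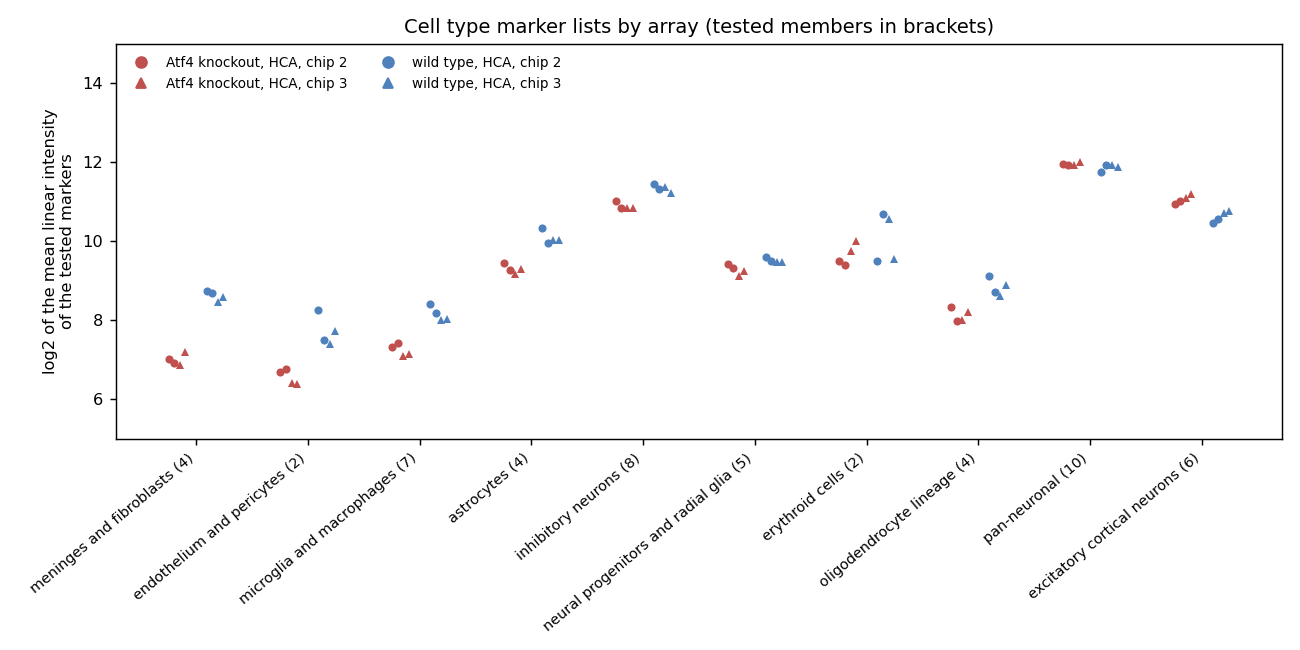
Summed level of each cell type marker list (log2 of the mean linear intensity of its tested markers) on each HCA array, knockout in red at left and wild type in blue at right, circles for chip 2 and triangles for chip 3. Knockout arrays lie below all wild-type arrays for meninges, endothelium, microglia, astrocytes, inhibitory neurons, progenitors and the oligodendrocyte lineage, above them for excitatory neurons, and among them for pan-neuronal and erythroid markers.

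Several families of matrix and membrane genes were grouped after their values were seen. Collagen genes were lower in 10 of 11 tested cases with a median of -1.24 (-1.22 at the bound), among them Col8a1 (at least 2.31-fold, detected on 0 of 4 knockout arrays), Col18a1 (-1.81) and Col4a1 (-1.57). The annexins Anxa2, Anxa3, Anxa5 and Anxa6 were all lower, with a median of -1.18, and the S100 proteins S100a4 (at least 2.54-fold, detected on 0 of 4 knockout arrays) and S100a6 (-1.95) were lower in 2 of 4 cases. Tgfbi, a matrix adhesion protein, had 6.08, 6.04, 5.57 and 6.57 in knockout, detected on 2 of 4 arrays, and 8.72, 8.15, 8.20 and 8.31 in wild type (-2.28 ± 0.22, adjusted p = 0.000441, limma). Of 5 tested IGF-binding proteins Igfbp7 (-1.89) and Igfbp5 (-1.41) were lower, and Igfbp3 (-0.52), Igfbp4 (-0.10) and Igfbp2 (-0.01) were not called. Of 4 laminins Lamc1 (-0.70) was lower, and Lama2 (-0.32), Lamb2 (-0.19) and Lama4 (0.22) were not called. The growth factor Igf2 was lower (-1.27). Cox6a2, a cytochrome c oxidase subunit best known from muscle, was at 5.74, 5.77, 6.02 and 5.57 in knockout, detected on 0 of 4 arrays, against 7.78, 8.73, 8.93 and 8.90 in wild type, at least 5.31-fold lower. Of 41 other respiratory chain genes 10 were lower and 0 higher, with a median of -0.11, led by Cox7a2 (-0.83) and Uqcrh (-0.80); the count was 4 without both wild-type arrays that lack Eif2s3y and 5 with median centring over all probes.

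The last comparison asked which of these differences were larger with HCA than without it. On the 16 arrays of chips 2 and 3, 28 genes (0.381% of 7357) had a genotype difference that depended on HCA (limma interaction term, 568 at an unadjusted p under 0.05). In 25 of them the difference was more negative with HCA, and in 3 less negative. In Atf4, Nupr1, Stc2 and Slc1a5 no knockout array with HCA detected the gene, so the size of the interaction is bounded by the background. The stress regulators held 8 of the 28, amino acid synthesis 6 and amino acid transport 5. Without knockout replicate 2 the count was 18, and with median centring over all probes it was 9. Untreated, 1831 genes were called in the fit to these 16 arrays, and with HCA that fit called 1982. Of the 1555 genes called in the fit to the 8 HCA arrays alone, 1045 were among the 1831. The 1555 and the 1831 come from unlike fits. A call in only 1 of the 2 does not show that the difference depends on HCA.

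Chac1 had means of 6.79 ± 0.36 in knockout and 11.81 ± 0.11 in wild type with HCA, and of 7.23 ± 0.30 in knockout and 9.67 ± 0.21 in wild type untreated (SD, n = 4 each). Its genotype difference was -5.02 with HCA and -2.45 untreated, and these differed by -2.57 ± 0.24 (adjusted p = 5.01e-05, limma). The mean with HCA was the lower one in knockout and the higher one in wild type. Eif4ebp1 showed the same layout, with 7.61 ± 0.15 in knockout and 11.62 ± 0.06 in wild type with HCA and 7.70 ± 0.25 in knockout and 9.81 ± 0.13 in wild type untreated (interaction -1.90 ± 0.16, adjusted p = 4.66e-05, limma). Nupr1 (-2.07, adjusted p = 0.00098, limma) was detected on 0 of 4 knockout arrays with HCA. For Mthfd2 the genotype difference was -2.30 with HCA and -0.64 untreated, an interaction of -1.66 ± 0.11 (adjusted p = 5.23e-06, limma). The interaction of Slc7a5 was -1.23 and of Slc6a9 -1.24. These 6 genes, Nupr1 included, kept the call under every alternative that tested them.

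In several of the 28 genes the genotype difference was small without HCA. Ddit4 had 7.42 ± 0.23 in knockout and 9.12 ± 0.43 in wild type with HCA, and 7.46 ± 0.46 in knockout and 7.59 ± 0.33 in wild type untreated (interaction -1.58 ± 0.21, adjusted p = 0.00193, limma). Slc1a5 had 5.12 ± 0.03 in knockout, detected on 0 of 4 arrays, and 6.47 ± 0.30 in wild type with HCA, and 5.38 ± 0.12 in knockout and 5.46 ± 0.22 in wild type untreated (interaction -1.26 ± 0.19). Both untreated means of Slc1a5 lay below the dimmest detected probes that set its bound. Its small untreated difference is therefore between levels near the background and does not show equal expression. Gpt2 was at -1.29 with HCA and -0.32 untreated, Cyb5r1, a membrane reductase, at -1.07 and -0.21, and the eIF2 subunit Eif2s2 at -0.52 and 0.03. Ppp1r15a had opposite signs, with -0.60 with HCA and 0.29 untreated (interaction -0.89 ± 0.14, adjusted p = 0.00659, limma), and Jun was at -0.68 with HCA and 0.20 untreated. Rem2 differed the other way, being higher in untreated knockout (0.54) and not called with HCA (-0.17). Among these genes the dependence on HCA was lost for Jun without 6 of the 8 HCA arrays, each left out singly (knockout 1, 2 or 3 or wild type 1, 2 or 4), and for Rem2 without 7 of 8, all but knockout 1. It was lost for Eif2s2 without knockout 2, 3 or 4 or wild type 2, 3 or 4, for Gpt2 without knockout 2 or wild type 2, 3 or 4, and for Cyb5r1 without knockout 2 or wild type 1 or 4. The adjusted p over these settings reached 0.108 for Jun, 0.101 for Rem2, 0.0968 for Eif2s2, 0.0662 for Gpt2 and 0.0681 for Cyb5r1 (limma).

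Knockout lay less far below wild type with HCA in Hes5, Nrarp and Cdca3. Hes5, a Notch target of neural progenitors, had 7.68 ± 0.19 in knockout and 8.01 ± 0.34 in wild type with HCA, and 7.41 ± 0.09 in knockout and 9.29 ± 0.37 in wild type untreated (SD, n = 4 each). Its interaction was 1.55 ± 0.25 (adjusted p = 0.0109, limma). That call was lost with median centring over all probes, with all 24 arrays in the fit and without both wild-type arrays that lack Eif2s3y (adjusted p up to 0.395, limma). Nrarp, another Notch target, was at -0.42 with HCA and -1.09 untreated, and Cdca3, a cell division gene, at -0.63 and -1.19. The dependence of Nrarp and of Cdca3 on HCA was near the threshold (adjusted p = 0.0491 and 0.0486, limma) and was lost when any 1 of the 8 HCA arrays was left out, with adjusted p up to 0.113 for Nrarp and 0.117 for Cdca3.

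Several strong losses outside this set had similar values without HCA. Stard4 was at -1.45 with HCA and -1.49 untreated, Hsp90b1 at -1.09 and -1.03, and Aqp4 at -1.70 and -1.71. The ER list had a median of -0.55 with HCA and -0.64 untreated. The stress regulator list had -1.70 with HCA and -0.48 untreated, and the amino acid synthesis list -1.93 and -0.80. For Slc7a3 (-4.14 with HCA, -3.17 untreated), Cars (-2.74 and -1.43), Jdp2 (-1.48 and -0.36) and Hmox1 (-2.14 and -0.68) the dependence on HCA did not pass the threshold (adjusted p between 0.148 and 0.311, limma), which does not show that the differences were equal.

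**Figure D5:**
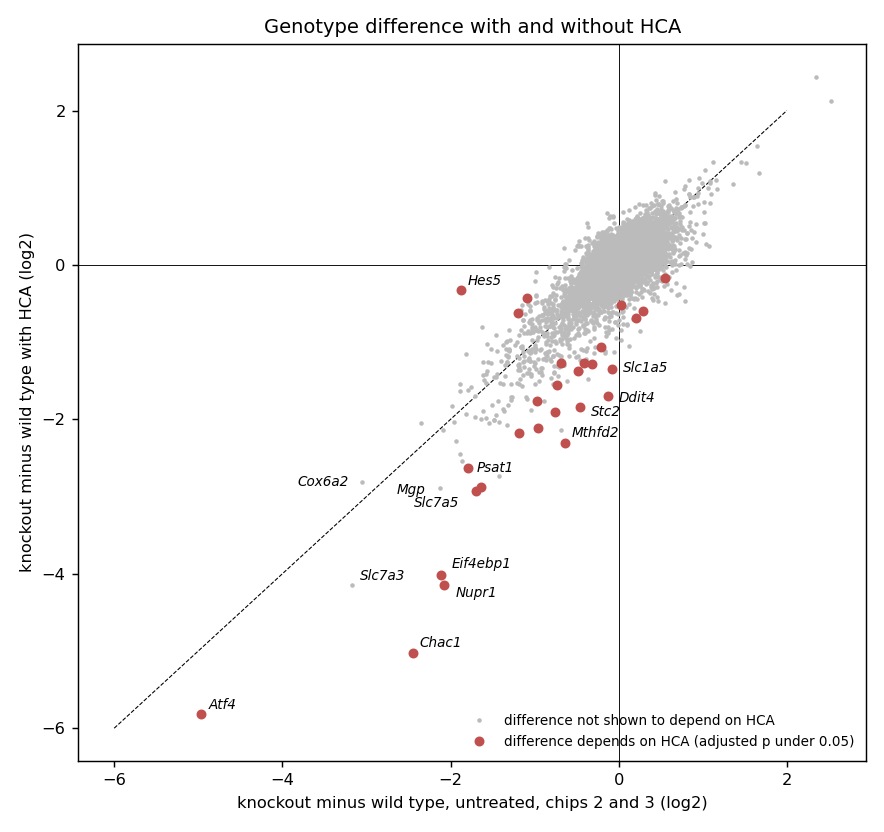
Difference between knockout and wild type (log2) for every tested gene, untreated on the horizontal axis and with HCA on the vertical axis, both from chips 2 and 3 (n = 4 per group). The 28 genes whose difference depends on HCA are red; Chac1, Nupr1, Eif4ebp1 and Mthfd2 lie far below the dashed line of equal differences, and Hes5 lies above it.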

How the data were processed

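Total RNA of 24 samples was hybridised to Illumina Mouse Ref-8 BeadChips, and 8 HCA arrays (4 Atf4 knockout, 4 wild type) were compared. Groups, replicate numbers and chips came from the labels. Per the file headers, BeadStudio 1.5.1.3 gave each of 24048 probes a mean bead intensity, linear and not normalized. Per the file headers it also gave a detection score, a fraction from 0 to 1, taken here as 1 minus a detection p, and other columns hold the deposited bead number and bead spread. The authors deposited log2 values for 23983 probes, per the submitters' processing notes made with limma, and they equalled quantile-normalized log2 signals to within 4.97e-14.

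Signals of all 24 arrays were background-corrected (normexp, offset 16, negative-control mean and spread from detection quantiles), quantile-normalized and put on a log2 scale. The offset makes a fold smaller for dim genes. Of 15946 named genes, the 7357 whose probe was detected (p under 0.05) on at least 4 HCA arrays were kept, with the brightest probe for each. A single gene symbol was given for 20919 of 23983 probes, several for 1 and none for 3063, and 20905 were matched to RefSeq of mouse GRCm38.p6. Limma 3.58.1 (lmFit, eBayes) was fitted with a chip term, with 5 residual and 3.10 prior degrees of freedom, and calls were made at a p under 0.05 after Benjamini-Hochberg adjustment. The interaction with HCA was fitted to the 16 arrays of chips 2 and 3. The limma fits, and not the processing steps before them, were tested on simulated gene levels with known differences. Where no array of a group detected a gene, its fold is the other group's mean over the dimmest detected probe.

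The text names Atf4, the 15 lowest and 12 highest called genes with the same sign on both chips, up to 3 members of each of 39 lists by p, and 15 genes whatever their value. Members and lists were chosen with earlier results of these data known, and genes outside the rule were named after their values were seen. Lists are described by counts and medians, without a test. A list's tested members had to be detected, which favours genes with a high level in either group. Among called genes, 212 had further detected probes, and 233 of these 256 probes (91.0%) had the same sign. Promoter windows, both strands, came from RefSeq for 6033 tested genes, and 1 of the genes with the motif is not reported here. Same-numbered arrays of the genotypes deviated together for numbers 1 and 4 (r of 0.506 and 0.516) and not for numbers 2 and 3 (r of -0.02 each), so numbers were not used as pairs. Alternatives were other background corrections, normalizations, filters, probe choices, uses of chip, fits and weights, and leaving out each array; leaving out both wild-type arrays without Eif2s3y was added after the data were seen.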

Additional observations from a re-analysis of the deposited data

Results flagged for a closer look

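In 14 of 262 groups of 4 arrays of the named genes, 1 array lay apart from the other 3, and chance alone sets about 1 in 20 groups apart. Knockout arrays apart were replicate 4 for Atf4 (log2 level 4.67, undetected), Fezf2 (11.82), Hsp90b1 (9.66) and Wars2 (6.67), replicate 1 for Prrt4 (8.58), Gja1 (9.52) and Aldh1l1 (7.11), replicate 2 for Igf2 (6.98) and Uqcrh (12.11), and replicate 3 for Stc2 (5.45, undetected). Wild-type arrays apart were replicate 2 for Eif4ebp1 (11.71), replicate 4 for Slc6a9 (10.85), replicate 1 for Gzmm (5.60) and replicate 3 for Hspa9 (10.87). The other 3 wild-type arrays were at 11.58 to 11.60 for Eif4ebp1 and at 10.64 to 10.66 for Slc6a9.

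In 28 genes the difference between knockout and wild type was not the same with HCA as without it (limma interaction, adjusted p under 0.05). The value is the difference with HCA minus the difference untreated, on the log2 scale. Among stress regulators it was -2.57 for Chac1, -2.07 for Nupr1, -1.90 for Eif4ebp1, -1.58 for Ddit4, -1.38 for Stc2, -1.14 for Vegfa, -0.89 for Ppp1r15a and -0.89 for Cebpb. For enzymes of amino acid synthesis it was -1.66 for Mthfd2, -1.14 for Mthfd1l, -0.99 for Asns, -0.97 for Gpt2, -0.84 for Psat1 and -0.79 for Shmt2. Amino acid transporters had -1.26 for Slc1a5, -1.24 for Slc6a9, -1.23 for Slc7a5, -0.86 for Slc1a4 and -0.82 for Slc3a2. The remaining negative values were those of Jun (-0.89), Cyb5r1 (-0.86), Rem2 (-0.72), Aars (-0.59) and Eif2s2 (-0.54), and Atf4 itself (-0.86). Atf4, Nupr1, Stc2 and Slc1a5 were detected on no knockout array with HCA, so their values are bounded by the background. Cdca3 (0.57), Nrarp (0.67) and Hes5 (1.55) lay less far below wild type with HCA, and the calls of Cdca3 and Nrarp were lost when any 1 HCA array was left out. The call was also lost for Asns without knockout replicate 2 or wild-type replicate 1, 3 or 4 (adjusted p up to 0.0615, limma), for Aars without knockout replicate 2 (0.0522) and for Atf4 without 7 of the 8 arrays, all but wild-type replicate 1 (up to 0.0864).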

How the results depend on the processing

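The 1555 calls numbered between 1154 and 1982 under the alternatives that used all 8 HCA arrays, apart from median centring over all probes. That setting gave 614 calls, 90 higher and 524 lower, and 9 genes whose difference depended on HCA in place of 28, and it moved the median of that dependence over all genes to -0.17 from 0.01. Without a detection filter 446 genes were higher, and with all 24 arrays in the fit 65 differences depended on HCA. Leaving out each array in turn gave between 903 and 1470 calls, between 335 and 686 higher and between 563 and 784 lower, and between 18 and 25 that depended on HCA; the test by chip stayed at 0 calls. Without both wild-type arrays that lack Eif2s3y there were 905 calls, 361 of them higher, and the Eif2s3y difference was -0.14, against 2.12 with them. The cause of these changes was not tested. Replicate number as a block, on samples that share only a number, gave 1648 calls, 793 higher and 855 lower, and 20 that depended on HCA. Of 131 named genes, 94 kept their side of the threshold under every alternative that gave a value, and of the 28 HCA-dependent genes 6 did; normalizing the 8 HCA arrays alone gives no value for that test. Genes detected on no array of a group have bounds only, and RNA of dim genes near the background is poorly measured.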

Other observations

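Lysosomal genes were lower in knockout with HCA in 7 of 18 tested cases (limma), with a median of -0.34 on the log2 scale: Ctsz (-0.71), a cathepsin, Lipa (-0.65), the acid lipase, Man2b1 (-0.55), Arsa (-0.50), Lamp2 (-0.44), Npc2 (-0.43) and Asah1 (-0.35). The lower calls numbered 3 without knockout replicate 1 or 2 or with median centring over all probes, and 4 without wild-type replicate 3 or 4, or without both wild-type arrays that lack Eif2s3y. Ctsb, a cathepsin, had 11.77, 11.81, 11.51 and 11.31 in knockout and 12.42, 11.96, 11.66 and 11.71 in wild type, with overlapping groups, and was not called (-0.34 ± 0.11, adjusted p = 0.0634, limma).

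Of 18 tested genes of axon guidance and adhesion 4 were higher and 0 lower: Cd200 (1.05), Nrp1 (0.40), a semaphorin receptor, Cntn2 (0.35) and Efnb3 (0.28). The higher calls numbered 2 without knockout replicate 2 or without any 1 of the 4 wild-type arrays, and 1 without both arrays that lack Eif2s3y or with median centring over all probes. Nrp1 had 11.85, 11.95, 11.92 and 11.89 in knockout and 11.53, 11.42, 11.47 and 11.60 in wild type, and the groups did not overlap. The progenitor markers Sox2 (-0.74) and Hes1 (-0.65) were lower, of 5 tested, and 4 were lower without wild-type replicate 2. Igf2 was the lower member of 6 tested neuropeptides and growth factors. Of 11 mitochondrial chaperones and proteases Clpp was higher (0.27) and Hspa9 lower (-0.46), beside 10.1% of all tested genes higher and 11% lower. Clpp lost its call without 7 of the 8 HCA arrays left out singly, all but knockout replicate 4 (adjusted p up to 0.103, limma). Of 12 voltage-gated channels Scn3b (0.41) was higher beside Kcnc4, and Kcnab2 (-0.33) lower beside Scn1a. Scn3b lost its call without knockout replicate 1, 2 or 4 or wild-type replicate 3 or 4 (adjusted p up to 0.0756, limma). Neither erythroid marker tested was called, Hba-a1 at -0.43 and Alas2 at 0.07.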
